A study of Mus musculus with 48 samples.

Results

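The nuclear-encoded subunits of oxidative phosphorylation were followed in mouse brain over the first week after permanent middle cerebral artery occlusion (MCAO), a surgical model of ischemic stroke. Members were the genes of the count tables whose symbols belong to the families Nduf (a, b, c, s and v series), Sdha to Sdhd, Uqcr, Cyc1, Cox4 to Cox8 and Atp5, without annotated pseudogenes ending in -ps. This symbol rule found 89 of 46983 genes. Complex I had 40 members, complex II 4, complex III 9, complex IV 19 and complex V 17. Of these, 85 are annotated as protein coding and 4 as processed pseudogenes (Ndufa11b, Ndufb4c, Ndufs6b and Cox6c2). Atp5s and Cox7a2l match by name without being classical subunits, and Ndufa4 is counted with complex I by its symbol although its protein is now placed with complex IV.

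The 48 libraries came from C57Black/6 male mice, 3 months old, with no transgene in any group. Control was intact cortex of unoperated mice (n = 4). Sham mice had the same surgery without closing the artery and were sampled at 3 h, 12 h, 24 h, day 3 and day 7 (n = 4 each). MCAO mice, whose artery was coagulated and then cut so that flow did not return, were sampled at the same times (n = 5 each, and n = 4 at 24 h). The per-sample labels give the tissue as cortex around the lesion, with unaffected tissue included, while the series text gives 3 forebrain hemispheres per time point. The lesions of this model are small and lie in the parietal cortex, so each MCAO library mixes injured and spared tissue. Bulk RNA of this kind cannot tell fewer cells of a type apart from less RNA per cell.

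Oxidative phosphorylation takes place in the inner mitochondrial membrane. Complex I (NADH dehydrogenase) and complex II (succinate dehydrogenase) pass electrons to ubiquinone, complex III (cytochrome bc1) passes them on to cytochrome c, and complex IV (cytochrome c oxidase) hands them to oxygen. Proton pumping by complexes I, III and IV drives complex V, the ATP synthase. All of complex II and most subunits of the other complexes are encoded in the nucleus, and neurons depend heavily on this pathway, which makes its transcripts of interest in tissue that loses its blood supply. NRF1, the ETS factor GABP and YY1 are known regulators of these nuclear genes.

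Promoters of 4 members that the comparisons below turn on are shown first. They were chosen after their values were seen: Atp5d and Ndufv1 were lower in MCAO than in sham over all times and at day 7, Ndufa11 was lower at day 7, and Ndufa7 was lower at 12 h. Each run holds the 250 bases before the RefSeq start site in GRCm38.p6, 5′ to 3′ on the strand of the gene. The capitals mark the matches to the motifs named below. The windows are chr10:80142025-80142274 on the plus strand for Atp5d, chr19:4012756-4013005 on the minus strand for Ndufv1, chr17:56717512-56717761 on the plus strand for Ndufa11 and chr17:33824322-33824571 on the plus strand for Ndufa7.
Atp5d: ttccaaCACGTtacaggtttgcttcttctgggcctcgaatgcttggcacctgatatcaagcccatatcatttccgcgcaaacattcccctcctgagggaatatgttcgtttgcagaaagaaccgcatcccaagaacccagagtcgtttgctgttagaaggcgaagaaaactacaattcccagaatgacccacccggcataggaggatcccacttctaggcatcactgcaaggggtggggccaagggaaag
Ndufv1: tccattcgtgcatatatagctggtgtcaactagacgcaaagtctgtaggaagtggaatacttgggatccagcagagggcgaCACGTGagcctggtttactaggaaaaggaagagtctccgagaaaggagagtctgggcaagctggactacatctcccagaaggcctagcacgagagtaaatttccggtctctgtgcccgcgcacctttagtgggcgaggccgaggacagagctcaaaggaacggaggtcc
Ndufa11: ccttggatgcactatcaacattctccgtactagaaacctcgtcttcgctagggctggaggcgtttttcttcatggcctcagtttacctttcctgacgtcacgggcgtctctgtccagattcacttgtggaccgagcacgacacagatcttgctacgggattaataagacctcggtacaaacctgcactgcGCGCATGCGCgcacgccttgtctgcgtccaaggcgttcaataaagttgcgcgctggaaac
Ndufa7: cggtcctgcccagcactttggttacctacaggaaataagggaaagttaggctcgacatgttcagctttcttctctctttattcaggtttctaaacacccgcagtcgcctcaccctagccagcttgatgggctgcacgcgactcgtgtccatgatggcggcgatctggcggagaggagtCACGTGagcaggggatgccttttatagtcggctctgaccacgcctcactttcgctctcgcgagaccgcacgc

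Short core motifs were counted on both strands from 250 bases before to 50 after the start. The NRF1 core GCGCATGC was found in 10 of the 68 members with a promoter in the table (14.7%), against 2.80% of all 27025 promoters. The Ndufa11 window holds it on both strands of a palindromic overlap, starting 60 bases before the start site. The ETS core CCGGAAG was found in 15 members (22.1%, against 9.12% of all promoters), among them Cox6a1, Cox8a, Sdhb and Uqcrh. The YY1 core AAGATGGCG was found in 6 members (8.82%, against 1.49%), and in Ndufs4, Ndufs6, Ndufs7, Ndufa9 and Ndufc1 it lay between 23 and 36 bases after the start. The hypoxia response core ACGTG, a much shorter run, was found in 18 members (26.5%, against 19.7%), including Atp5d, Ndufv1 and Ndufa7. Among the 9 members with a promoter in the table whose counts were lower at day 7 (below), 1 held the NRF1 core, 1 the ETS core, 2 the YY1 core and 2 the hypoxia core, so no single one of these cores was common to them. A match is a description of letters and not a bound site.

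Reads were counted per gene from 3′ end libraries, in which counts depend little on transcript length, and CPM (the count of a gene over the effective total of its library, scaled up) served as levels. The libraries held 1522668 to 2826735 counts on genes (median 1935856). Of the 89 members, 88 had more than 10 reads in total and were tested. Cox8c, a testis isoform, had 0 reads, which allows a level of up to 0.0309 CPM over the 48 libraries together (counting error only). A mean of at least 10 CPM was reached by 73 members. The authors removed mitochondrial reads before alignment, so the residual counts of the mitochondrially encoded partners carry no level here.

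The 4 libraries that stood apart from their groups did so on the leading component of all genes, which held 19.98% of the variance within groups. Sham 12 h A, MCAO 12 h D and sham day 7 D lay on one side, sham 12 h C on the other, each by more than 4 median absolute deviations. Several members were among the genes that set these libraries apart, so counts and log2 fold changes of members that rest on them are given with and without the 4.

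Cox7c (chr13:86044816-86046904, minus strand, GRCm38), a small subunit of complex IV, had 30.7 CPM in sham 12 h A, 17.1 in MCAO 12 h D and 33.8 in sham day 7 D. In the 44 libraries that did not stand apart it lay between 110 and 745 CPM, with a median of 481. The 3 libraries were therefore below every one of the 44. Against the other libraries of their groups the mean log2 difference over these 3 libraries was −3.66 for Cox7c, −2.34 for Atp5j (a peripheral stalk subunit of the ATP synthase), −2.17 for Ndufb3 and −2.01 for Sdhc, the membrane anchor of complex II. Ndufa1, Ndufa4, Uqcrfs1, Cox7b and Atp5g3 differed by −1.98, −1.97, −1.39, −1.11 and −1.04. These 9 of 73 members were lower by more than 1 on average and none was higher by as much. Ndufa12, an accessory subunit of complex I, lay the other way at 339, 346 and 338 CPM in the 3 libraries, against a highest value of 255 CPM in the others. In sham 12 h C the differences of these 9 were positive, from 0.52 for Cox7b to 1.61 for Atp5j. Taken singly, sham 12 h A, MCAO 12 h D and sham day 7 D had 8, 10 and 7 of the 73 members lower by more than 1. None was higher by as much. Of all genes with a mean of at least 10 CPM, 7.59%, 8.57% and 8.62% were lower by more than 1 in the 3 libraries. The shares higher by more than 1 were 0.81%, 2.96% and 1.03%.

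The last 300 bases of the transcripts, where 3′ reads fall, had a GC content of 29.3 to 48.7% in these 9 members (median 37.3%) against a median of 47.3% in the rest. Across the 73 members GC and the library's difference had Spearman correlations of 0.55, 0.53 and 0.54 in the 3 libraries and −0.25 in sham 12 h C, and across all genes 0.30, 0.29 and 0.30 in the 3. These are descriptions across genes that share a library, and their part in the results below was not tested.

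**Figure D1:**
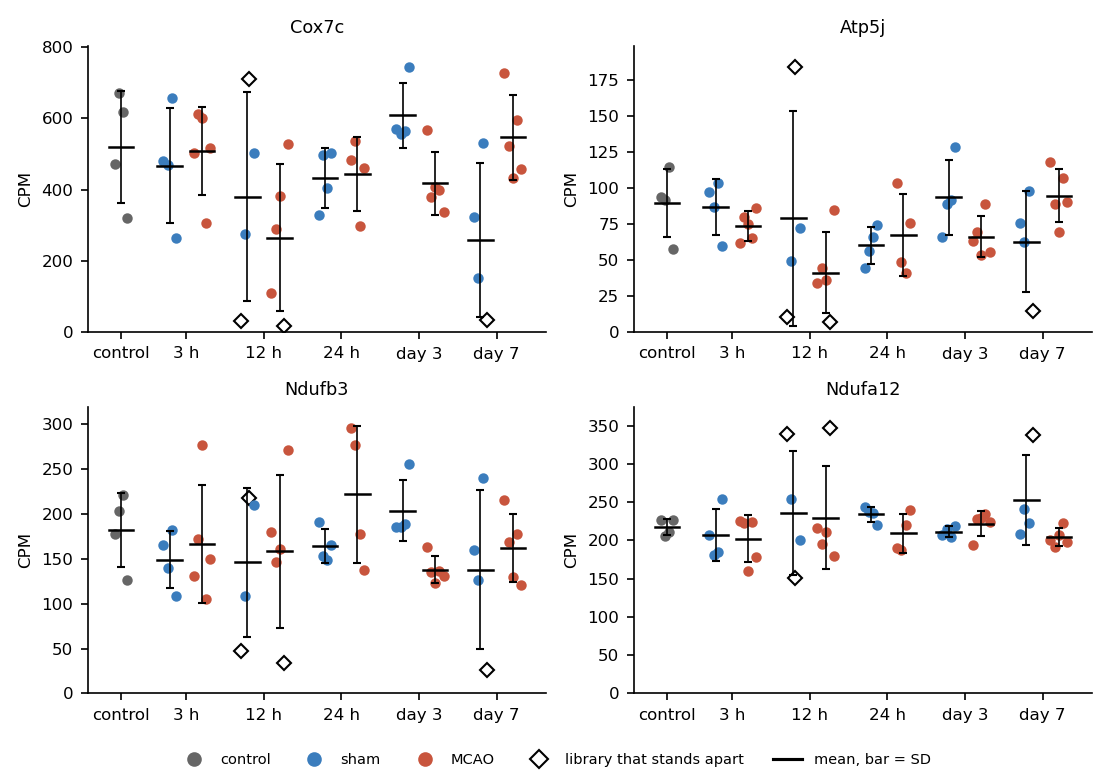
Level (CPM) of Cox7c, Atp5j, Ndufb3 and Ndufa12 in the 48 libraries by group; each point is a library and diamonds mark the 4 libraries that stand apart. Cox7c, Atp5j and Ndufb3 drop in sham 12 h A, MCAO 12 h D and sham day 7 D, with Cox7c at 17.1 to 33.8 CPM there, while Ndufa12 is at its highest, 338 to 346 CPM.

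The members together made up 1.47 to 2.2% of the counts on genes. Summed over all members the level was 18440 ± 878 CPM in control (SD, n = 4) and the group means lay between 16660 CPM (MCAO 12 h, SD 1702, n = 5) and 19865 CPM (sham day 7, SD 614, n = 4). Complex I contributed 5763 ± 172 CPM in control, complex II 622 ± 45.6, complex III 2017 ± 111, complex IV 5404 ± 394 and complex V 4634 ± 180 (SD, n = 4 each). Most groups overlapped one another. At day 7 all 4 shams lay above all 5 MCAO libraries, at 18950 to 20276 against 15789 to 18723 CPM, and control lay across both at 17458 to 19476 CPM. For complex I alone the day 7 means were 6424 ± 370 CPM in sham (SD, n = 4) and 5525 ± 348 CPM in MCAO (SD, n = 5). Sums weigh abundant members most. As the mean of log2(CPM + 1) over all members, the day 7 groups overlapped, at 6.52 ± 0.09 in sham and 6.48 ± 0.09 in MCAO (SD). On that scale 1 of the 5 MCAO libraries lay below every sham, and 2 of 5 did for complex I. Sham day 7 D had the highest sum of the day 7 shams (20276 CPM) and their lowest mean log2 level (6.39).

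**Figure D2:**
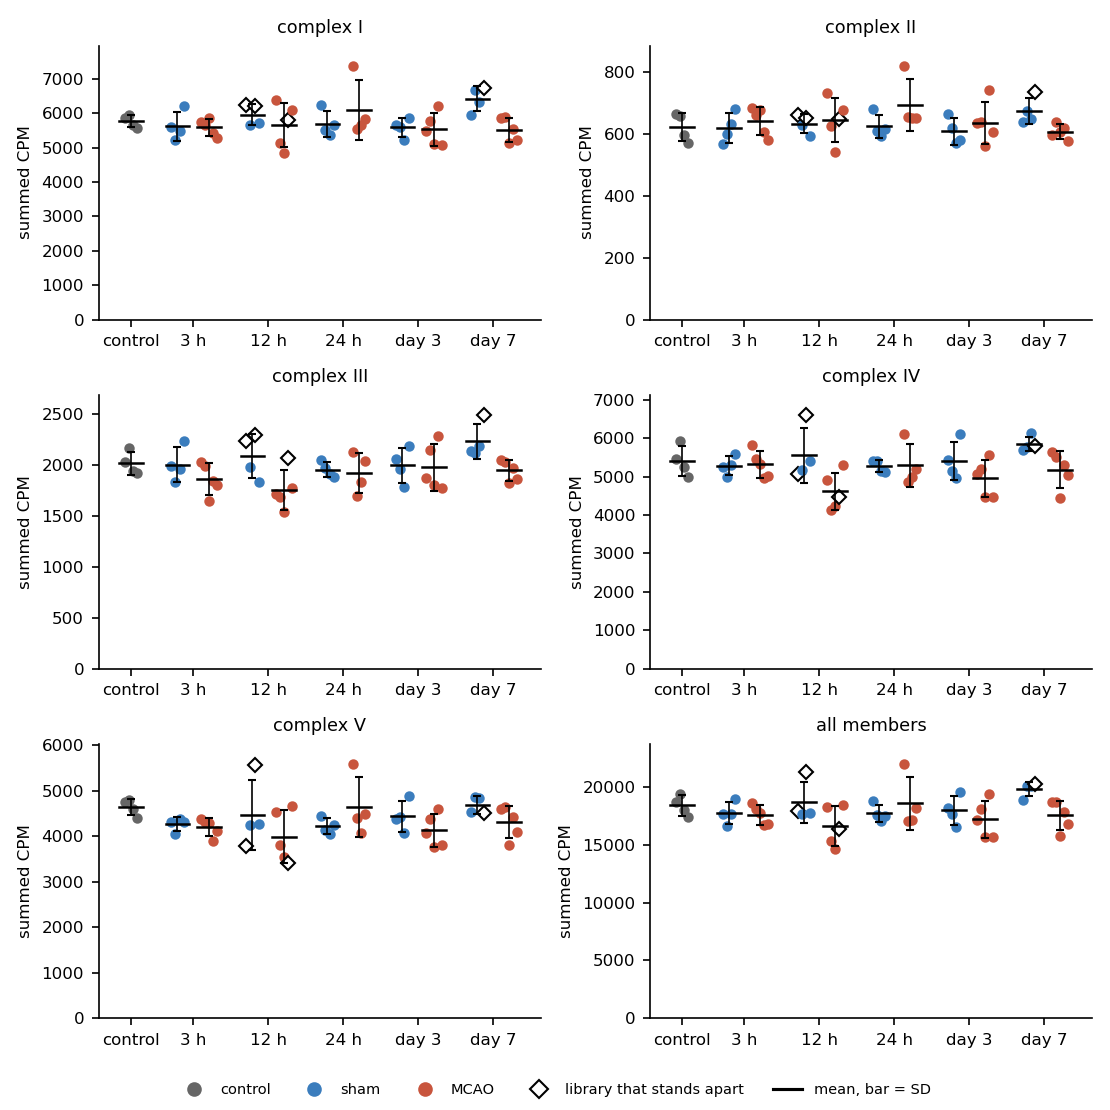
Summed CPM of the members of each complex in every library, by group; points are libraries, bars are group means and diamonds are the 4 libraries that stand apart. Complex I carries the largest sum in control (5763 CPM) and complex II the smallest (622 CPM), and the group mean of complex I is highest in the day 7 shams (6424 CPM).

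Abundance within a complex was very uneven in these 3′ counts. The most abundant members were Atp5g3, a gene of the proton-conducting c ring, at a mean of 911 CPM over the 48 libraries, Cox6c at 897 and Cox6a1, the general isoform of subunit 6a, at 801. Cox8a had 563, Atp5a1, the catalytic-head alpha subunit, had 573, and in complex III Uqcrh and Uqcrq, both small accessory subunits, had 557 and 340. In complex I, Ndufb8 (325) and Ndufa10 (311) led, and in complex II the flavoprotein Sdha (276) and the iron-sulfur protein Sdhb (274) stood far above Sdhc (84.1) and Sdhd (2.80). Some low values may reflect counting: reads that fit several places were left out by the authors, and every 50-base run of the last 300 bases of Ndufb4c, 76.5% of those of Atp5h, 73.3% of Cox7c, 54.6% of Ndufs5, 53.0% of Ndufs3, 23.9% of Cox6c and 19.1% of Ndufb3 recur in another gene, so the levels of these 7 are uncertain.

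Within groups the complexes moved together from library to library. The correlation of the mean log2 level of complex I with that of complex III, after removing group means, was 0.76. It was 0.67 with complex V and 0.61 with complex IV. Complex II followed least, at 0.26 with complex I, 0.34 with IV, 0.38 with III and 0.59 with V. Its level is a mean over few genes. Among them are the sparse Sdhd, and Sdhc, which was low in sham 12 h A, MCAO 12 h D and sham day 7 D. These correlations over 48 libraries, those that stand apart included, share library and depth and are a description.

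The main comparison set MCAO against sham at the same time, and over the mean of the 5 times, for all 19970 tested genes with edgeR's quasi-likelihood test and Benjamini-Hochberg adjustment. Genes were called where the adjusted p was below 0.01 and the log2 fold change was beyond 0.58 in either direction. No member was called in any of the 6 comparisons, by edgeR or by DESeq2, and the shares of all genes called were 4.89% over the mean of times, 0.11% at 3 h, 0.411% at 12 h, 0.0901% at 24 h, 4.02% at day 3 and 3.5% at day 7. With adjusted p under 0.05 and no fold limit, 6 members fell over the mean of the times (5.11% of all genes fell), 1 fell at 12 h (0.401%) and 13 fell at day 7 (3.98%). None rose in any of these, and 0 members passed in either direction at 3 h (0.28% of all genes), 24 h (0.23%) and day 3 (8.23%).

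At an unadjusted p under 0.05 the members were 10 lower and 1 higher over the mean of times, against 10.6% and 15.8% of all genes. At 12 h they were 21 lower and 1 higher, against 6.12% and 8.48%. At day 7 they were 28 lower and 4 higher, against 9.85% and 13.7%. A single member had such a p at each of 3 h (8.45% of all genes), 24 h (8.8%) and day 3 (21.6%). These were Ndufa7 at 3 h, Ndufb7 at 24 h and Uqcrfs1 at day 3.

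Typical sizes were small. The median log2 fold change of the 88 members was −0.06 over the mean of times, −0.01 at 3 h, −0.17 at 12 h, 0.08 at 24 h, −0.03 at day 3 and −0.11 at day 7, and that of all genes was 0.03, 0.00, 0.01, 0.02, 0.01 and 0.06. A negative value was seen in 62, 49, 67, 29, 49 and 55 members in the same order. Without the 4 libraries that stand apart the medians were −0.04, −0.01, −0.10, 0.08, −0.03 and −0.15. The 24 h median rested on MCAO 24 h A, without which it was −0.03.

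**Figure D3:**
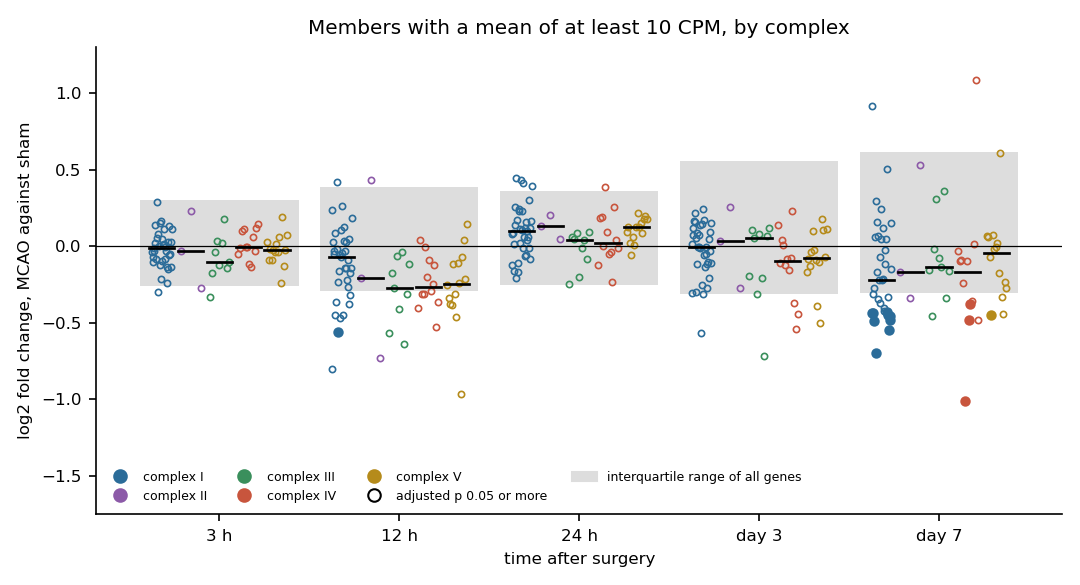
Log2 fold change of MCAO against sham for members with a mean of at least 10 CPM, by complex and time; each point is a gene, filled points have an adjusted p under 0.05 in edgeR, black bars are medians of the plotted genes, and the grey band spans the interquartile range of all genes. Filled points appear at 12 h (1 member) and day 7 (13 members) and all lie below 0.

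The 6 members that fell over the mean of the 5 times lie in 4 complexes. The largest was Cyc1 (chr15:76343523-76346260, plus strand), cytochrome c1 of complex III, with a log2 fold change of −0.30 (SE 0.08, adjusted p = 0.00936, 24 MCAO and 20 sham libraries). Ndufv1, the subunit that binds NADH, differed by −0.21 (SE 0.07, adjusted p = 0.0347), and Atp5d, the delta subunit of the rotating stalk of the ATP synthase, by −0.20 (SE 0.06, adjusted p = 0.0146). Cox7a2 and Cox6c, both of complex IV, differed by −0.18 each (adjusted p = 0.0223 and 0.0251). Without the 4 libraries Cyc1 (−0.22, adjusted p = 0.0218), Ndufv1 (−0.22, 0.0143) and Cox6c (−0.17, 0.0432) passed, and Atp5d (−0.14, 0.0712) and Cox7a2 (−0.14, 0.066) did not. Leaving out sham 3 h D alone left 3 members.

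The other complexes' extremes in this comparison had log2 fold changes of 0.16 for Sdhb and −0.14 for Sdhc in complex II, 0.14 for Ndufv3 in complex I, 0.01 for Uqcrb in complex III, 0.03 for Cox7c and −0.23 for Cox8a in complex IV, and 0.05 for Atp5o in complex V. None of these passed. The abundant Ndufa10, Ndufb8, Sdha, Uqcrh, Uqcrq, Cox6a1, Atp5a1 and Atp5g3 had values between −0.16 and 0.01.

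At 12 h Ndufa7, an accessory subunit of complex I, was the 1 member to fall. Its level in MCAO replicates A to E was 105, 134, 117, 166 and 114 CPM, against 206, 169, 205 and 170 CPM in sham replicates A to D. All 5 MCAO libraries lay below all 4 shams, and control (157, 174, 187 and 176 CPM) was closer to sham. The log2 fold change was −0.56 (SE 0.13, adjusted p = 0.0224 in edgeR). Without the 4 libraries it was −0.53 with an adjusted p of 0.140. Leaving out MCAO 12 h D alone, the highest of the MCAO values, put Ndufa7 past the calling rule and raised the members with an adjusted p under 0.05 to 4. Leaving out MCAO 12 h A, MCAO 12 h C or sham 12 h C left 0, leaving out MCAO day 3 E, which enters through the shared spread, gave 2, and a fit of the compared groups alone gave 0.

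Groups of libraries that did not overlap were seen at 12 h for 3 members, all lower in MCAO (Ndufa3, Ndufa7 and Sdha; 1.27% of all genes lower and 2.03% higher without overlap). Sdha, the flavoprotein of succinate dehydrogenase, had 272, 230, 222, 260 and 260 CPM in MCAO and 299, 283, 294 and 274 CPM in sham. Ndufa3 had 143, 156, 115, 150 and 178 CPM in MCAO and 198, 194, 233 and 184 CPM in sham. Its log2 fold change of −0.45 (SE 0.13) had an adjusted p of 0.0592. Sdhb, which works beside Sdha in the same complex, had 0.43 in the opposite direction (adjusted p = 0.193). The 12 h medians over all tested members were −0.06 for complex I, −0.46 for II, −0.27 for III, −0.27 for IV and −0.25 for V, and without the 4 libraries −0.08, −0.21, −0.12, −0.16 and −0.16. All 5 medians were negative in both fits, and 4 of the 5 were nearer 0 without the libraries that stand apart. The median of complex II is over few genes and differs from its summed level. That sum was 645 ± 70.1 CPM in MCAO (SD, n = 5) and 634 ± 29.6 CPM in sham (SD, n = 4).

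The members with an adjusted p under 0.05 were most numerous at day 7. The 13 that fell were 9 of complex I (among them Ndufs7, Ndufa2, Ndufa5, Ndufs4, Ndufa11, Ndufa10, Ndufs8 and Ndufv1), 3 of complex IV (Cox6c, Cox6a2 and Cox7a2) and Atp5d of complex V. None belonged to complex II or III. Ndufs7, Ndufs8 and Ndufv1 are catalytic core subunits that carry the flavin or iron-sulfur clusters or shape the quinone site, and Ndufa2, Ndufa5, Ndufa10, Ndufa11 and Ndufs4 are accessory subunits. Median log2 fold changes over all tested members at day 7 were −0.16 for complex I, 0.18 for II, −0.14 for III, −0.09 for IV and −0.07 for V, and without the 4 libraries −0.14, 0.08, −0.14, −0.17 and −0.16. The complex II median has no clear direction. The sparse Sdhd (1.40) and Sdhc (0.53) were positive, while the abundant Sdha (−0.17) and Sdhb (−0.34) were negative. Summed over complex II the level was 608 ± 23.4 CPM in MCAO (SD, n = 5) and 674 ± 42.6 CPM in sham (SD, n = 4).

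Cox6c (chr15:35925886-35938246, minus strand), the most abundant of the 13, had 887, 830, 731, 816 and 916 CPM in MCAO replicates A to E and 1038, 1252, 1051 and 1324 CPM in sham replicates A to D. Its log2 fold change was −0.48 (SE 0.13, adjusted p = 0.0104). Every MCAO library was below every sham, while control (976, 951, 888 and 843 CPM) lay across the upper MCAO values. Ndufa5 had 149, 179, 133, 135 and 144 CPM in MCAO against 201, 254, 219 and 287 CPM in sham (log2 fold change −0.70, SE 0.22, adjusted p = 0.0304). Ndufs7, with an iron-sulfur cluster next to the quinone site, had 78.5, 86.0, 71.4, 75.8 and 73.3 CPM against 105, 119, 105 and 122 CPM (−0.55, SE 0.16, adjusted p = 0.024). Both showed no overlap of the groups, and for both control lay between or across them.

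Ndufv1 had 218, 263, 223, 239 and 291 CPM in MCAO and 336, 322, 287 and 408 CPM in sham, so that MCAO replicate E reached above the lowest sham (log2 fold change −0.46, adjusted p = 0.0471). Atp5d had 230, 249, 196, 207 and 205 CPM in MCAO and 277, 279, 262 and 370 CPM in sham (−0.45, SE 0.13, adjusted p = 0.0223). The remaining 7, apart from Cox6a2, had log2 fold changes from −0.38 (Cox7a2, adjusted p = 0.0484) to −0.49 (Ndufa2, adjusted p = 0.0245). Across all members 15 had MCAO libraries all below sham (5.1% of all genes) and 1 had them all above (5.38%), the pseudogene Ndufb4c, whose tail recurs in full in other genes.

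These day 7 results rested on sham day 7 D, which was the highest sham for 11 of the 13 members. Leaving it out alone left 0 of the 13 with an adjusted p under 0.05 in edgeR, as did leaving out all 4 libraries that stand apart (18 members lower and 4 higher at an unadjusted p under 0.05, against 7.62% and 11% of all genes). In that fit all 13 log2 fold changes were negative, from −0.24 for Cox7a2 to −0.91 for Cox6a2. Without sham day 7 D, 11 of the 13 had every MCAO library below every remaining sham. The 13 were selected as lower in the full fit, and the other day 7 libraries are the same. Neither the shared sign nor this count is therefore a separate test. Leaving out MCAO A, C, D or E or sham B at day 7 left 8, 2, 6, 6 and 4 members, the compared groups alone gave 4, and scaling to the spike-ins gave 0.

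**Figure D4:**
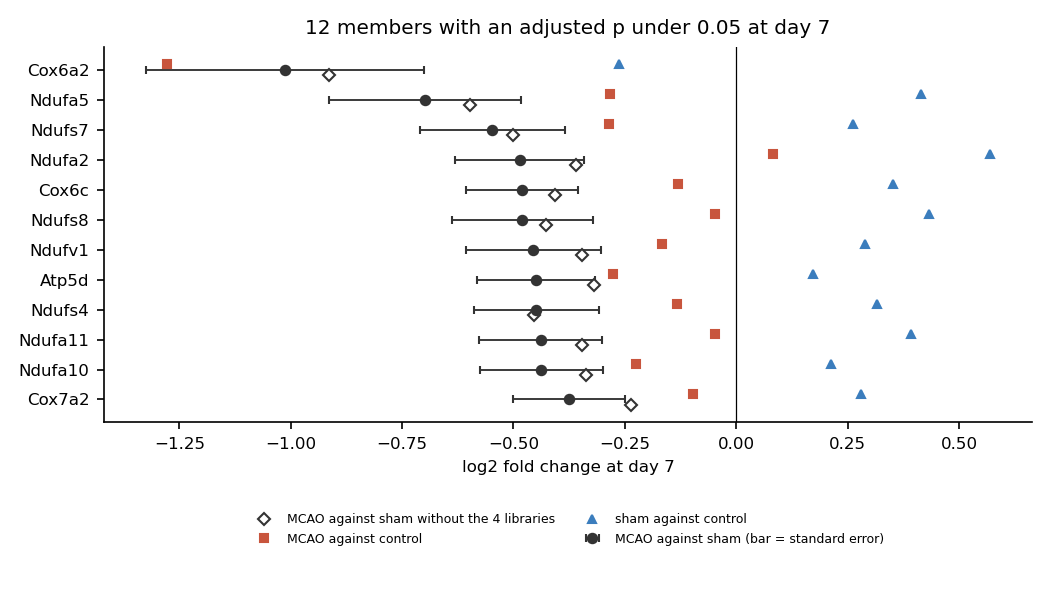
Log2 differences of 12 of the 13 members that fell at day 7 for MCAO against sham (with SE, and again without the 4 libraries that stand apart), MCAO against control, and sham against control. MCAO against sham lies at −0.38 to −1.01 for the 12, while MCAO against control is nearer 0 for all but Cox6a2 and sham against control is above 0 for 11.

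Set beside control, the day 7 shams were the higher group. For 12 of the 13 members the day 7 shams were above control, by a log2 difference of 0.17 (Atp5d) to 0.57 (Ndufa2, unadjusted p = 5.48e-04, adjusted p = 0.475), and no member passed for day 7 sham against control. MCAO at day 7 against control gave −0.29 for Ndufs7, −0.28 for Ndufa5 and for Atp5d, −0.23 for Ndufa10, −0.13 for Cox6c, −0.05 for Ndufs8 and 0.08 for Ndufa2, none of which passed. These comparisons share libraries, so their values stand side by side and are not independent. The 13 were also selected for MCAO below these same shams, which by itself favors shams above control.

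Cox6a2 (chr7:128205435-128206387, minus strand) was the exception. It is the heart and skeletal muscle form of a complex IV subunit whose general form is Cox6a1, and in the cortex it is known from parvalbumin interneurons. It had 9.23, 10.2, 8.92, 10.1 and 16.3 CPM in MCAO at day 7, 21.2, 19.6, 21.3 and 26.0 CPM in sham and 35.2, 29.2, 19.2 and 22.3 CPM in control. MCAO lay below both other groups without overlap. The log2 fold change was −1.01 against sham (SE 0.31, adjusted p = 0.0301) and −1.28 against control (SE 0.31, adjusted p = 0.00967, called). Without the 4 libraries the adjusted p was 0.118 and 0.0117. Pvalb itself had 35.2, 31.6, 32.7, 26.4 and 24.4 CPM in MCAO and 147, 82.6, 142 and 246 CPM in sham (log2 fold change −2.36). The 246 CPM is of sham day 7 D, which stands apart. In the shams of the other times Pvalb varied widely, from 18.4 CPM (24 h D) to 206 CPM (3 h D). Striated muscle markers summed to 17.5 to 30.2 CPM in MCAO at day 7 against 31.3 to 53.4 CPM in sham.

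Levels of cell type markers also differed at day 7. Of 12 neuron markers 4 fell (Nefm, Nefl, Camk2a and Rbfox3), with summed levels of 6987 to 11180 CPM in MCAO against 12224 to 14214 CPM in sham, and of 6 genes of parvalbumin interneurons 5 fell (252 to 451 against 608 to 1052 CPM). Of 11 microglia and macrophage markers 9 rose (1097 to 4993 against 491 to 620 CPM) and of 8 fibroblast markers all 8 rose (174 to 5617 against 43.3 to 97.6 CPM). Of all genes 3.98% fell and 5.26% rose at the same limit. Every one of these lists had reads in all libraries of both groups. Their part in the lower level of the 13 members was not tested.

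Against control, which all 5 times share, MCAO members were called lower at 12 h (2, against 0.471% of all genes), 24 h (1, 0.16%), day 3 (1, 0.29%) and day 7 (1, Cox6a2, 0.416%), and 0 at 3 h (0.015%; 0 members had an unadjusted p under 0.05 in that direction). Atp5d was called at 12 h (log2 fold change −0.76, SE 0.13, adjusted p = 3.59e-04), 24 h (−0.69, adjusted p = 0.0062) and day 3 (−0.62, adjusted p = 0.00133). Cyc1 was called at 12 h (−0.88, SE 0.18, adjusted p = 0.00364) and had −0.89 at 24 h (adjusted p = 0.0114) and −0.54 at day 3 (adjusted p = 0.0608). Without the 4 libraries 4 members were called at 12 h (Atp5d, Cyc1, Ndufa4 and Atp5g1; 0.632% of all genes were called lower), 2 at 24 h (Atp5d and Cyc1, 0.288%), 2 at day 3 (Atp5d and Ndufa4, 0.495%) and 0 at day 7 (0.47%).

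The level of Atp5d followed time in both arms. Control had 250, 268, 266 and 270 CPM. Sham replicates A to D had 225, 246, 243 and 220 CPM at 3 h, 181, 171, 294 and 164 at 12 h, 170, 171, 165 and 176 at 24 h, 178, 191, 162 and 171 at day 3, and 277, 279, 262 and 370 at day 7. MCAO had 243, 188, 192, 238 and 236 CPM at 3 h, 169, 161, 135, 182 and 128 at 12 h, 178, 135, 159 and 183 at 24 h, 164, 175, 172, 170 and 173 at day 3, and 230, 249, 196, 207 and 205 at day 7. Both arms were thus low from 12 h to day 3, and the 24 h and day 3 shams did not overlap with control. Sham 12 h C, one of the libraries that stand apart, was the exception at 294 CPM. Sham against control gave −0.63 at 24 h (adjusted p = 0.0993, and 0.00611 without the 4 libraries) and −0.58 at day 3 (adjusted p = 0.298, and 0.0499 without them).

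Cyc1 was likewise low in both arms at 24 h, but its day 3 shams (92.3 to 127 CPM) overlapped control. At 3 h its mean was 102 CPM in MCAO (SD 16.6), 128 CPM in sham (SD 13.6) and 130 CPM in control (SD 15.9). Control had 123, 154, 124 and 120 CPM, the 24 h shams 73.0, 77.1, 87.8 and 96.0 CPM and the 24 h MCAO libraries 72.7, 69.6, 70.7 and 67.8 CPM. Both 24 h groups lay below control without overlap. At day 7 sham was back at 133, 132, 121 and 133 CPM and MCAO at 147, 104, 105, 128 and 98.3 CPM. Over the mean of all shams against control, no member had an adjusted p under 0.05 (0.0501% of all genes did), and edgeR gave 3 members an unadjusted p under 0.05 (4.77% of all genes), Atp5d (−0.32), Ndufa4 (−0.65) and Cox5b (0.32). Ndufa4 had 132, 141, 139 and 132 CPM in control and a median of 86.2 CPM in the 44 libraries. It differed from control by −1.16 in MCAO at 12 h (adjusted p = 0.0407), a value that includes MCAO 12 h D, and by −0.92 without the 4 libraries (adjusted p = 0.00417).

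**Figure D5:**
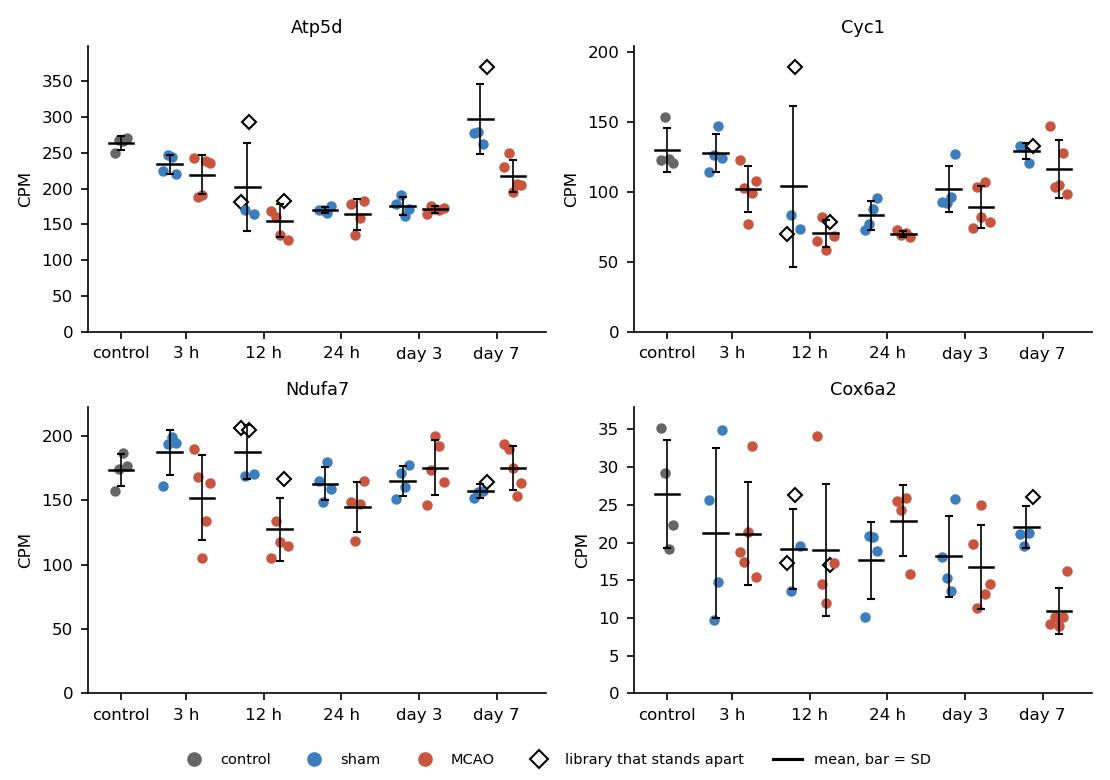
Level (CPM) of Atp5d, Cyc1, Ndufa7 and Cox6a2 in the 48 libraries by group, with bars at the group means and diamonds for the 4 libraries that stand apart. The group means of Atp5d and Cyc1 are lower at 12 h, 24 h and day 3 than in control in both arms, Ndufa7 separates the arms at 12 h, and Cox6a2 is lowest in MCAO at day 7.

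Whether the MCAO effect itself changed between neighbouring times was tested in the same fit. No member had an adjusted p under 0.05 for 12 h against 3 h (0.01% of all genes), 24 h against 12 h (0.01%), day 3 against 24 h (0.02%) or day 7 against day 3 (0.15%). The members with an unadjusted p under 0.05 in edgeR numbered 3, 5, 1 and 23 of 88, against 7.12%, 5.08%, 8.82% and 16.2% of all genes. A change of the effect between day 3 and day 7 was thus not shown for any single member.

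At 3 h Ndufa7 had −0.30 (SE 0.13, adjusted p = 0.537) and Atp5j2 lay above sham in every MCAO library (1 of 88 members, against 2.27% of all genes). At 24 h Ndufb7 had 139, 74.8, 79.6 and 104 CPM in MCAO against 82.5, 65.1, 73.2 and 77.6 CPM in sham (0.41, SE 0.19, adjusted p = 0.528). These groups overlapped, and Cyc1 was the 1 member whose 24 h MCAO libraries all lay below sham (2.1% of all genes). At day 3 Uqcrfs1, the Rieske iron-sulfur protein of complex III, had 94.5, 66.0, 58.4, 78.6 and 56.8 CPM in MCAO and 110, 98.8, 99.5 and 159 CPM in sham. The groups did not overlap, and the log2 fold change of −0.72 (SE 0.32) had an adjusted p of 0.178, or 0.0331 without the 4 libraries, none of which is of day 3. Atp5g3, Ndufa1 and Ndufb3 were likewise lower in every day 3 MCAO library, which makes 4 of 88 members (2.81% of all genes), and Ndufb7 was higher (1 of 88, against 4.33%). A fit of the day 3 groups alone gave Uqcrfs1 and Ndufb3 an adjusted p under 0.05. Uqcrfs1, Atp5g3, Ndufa1 and Ndufb3 all belong to the members named above as low in sham 12 h A, MCAO 12 h D and sham day 7 D. Whether the same difference between libraries enters their day 3 values was not tested.

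Tissue-restricted isoforms were sparse. Ndufa4l2, a hypoxia-inducible relative of Ndufa4, had a mean of 1.63 CPM, Cox4i2, the lung and hypoxia form of subunit 4, 1.16 CPM, Cox7a1, the heart and muscle form of subunit 7a, 3.10 CPM, Cox6b2 3.98 CPM, Cox7b2 0.604 CPM and Cox8b 0.239 CPM. At these levels a library holds a handful of reads per gene. Ratios of isoforms that can replace each other were tested at each time by a two-sided exact permutation test on log2(CPM + 1) (25 tests). None passed Benjamini-Hochberg adjustment. The lowest p was that of Cox6a2 to Cox6a1 at day 7, with MCAO minus sham at −0.72 (exact p = 0.0159, the smallest that 5 against 4 libraries allow, adjusted p = 0.397). Cox7a1 to Cox7a2 at day 7 was 0.66 higher (exact p = 0.0476, adjusted p = 0.529). Ndufa4l2 to Ndufa4 differed by −0.30 at 3 h, 0.31 at 12 h, 0.35 at 24 h, 0.76 at day 3 and −0.54 at day 7 (exact p = 0.381, 0.778, 0.371, 0.143 and 0.413).

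Genes that build or surround the complexes were followed as lists. Their day 7 values, like those of the cell type markers above, are from the fit that includes sham day 7 D. How far they rest on that library is not given here. Of 48 assembly factors tested, 4 fell at day 7 (Surf1 −0.57, Cox14 −0.52, Cox10 −0.62 and Coa7 −0.64), against 3.98% of all genes. Over the mean of times Cox20 rose (0.28) and Ndufaf1 fell (−0.41), where 9.17% of all genes rose and 5.11% fell. Among 16 regulators of mitochondrial biogenesis, Ppargc1a, the coactivator PGC-1 alpha, fell over the mean of times (−0.28, SE 0.07, adjusted p = 0.00293) and at day 3 (−0.56, adjusted p = 0.0142; 1.69% of all genes fell). Ppara was called lower over the mean of times (−0.71, adjusted p = 0.00648), and Gabpb1 (0.39) and Pprc1 (0.42) rose. Of 19 carriers and import genes, Tomm22 (0.71) and Etfa (1.35) rose and Vdac3 (−0.49) fell at day 7.

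Mitochondrial ribosomal proteins, which translate those partners, had 1 gene of 77 called at several times. Mrps6 was called higher at 12 h (1.36), 24 h (1.33) and day 3 (1.43); its locus overlaps Slc5a3 on the same strand, so its reads are uncertain. At day 7, 4 of the 77 rose and 4 fell at an adjusted p under 0.05, against 5.26% and 3.98% of all genes, with Mrpl48 (−0.96) and Mrpl58 (−0.80) called lower. Of 16 hypoxia targets, Hk2, the hexokinase that feeds glycolysis, was called higher at 12 h (2.02), day 3 (2.69) and day 7 (1.86) and Adm at 12 h (3.08).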

How the data were processed

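Cortical RNA (400 ng, RQN over 8, ERCC spike-ins added) was made into QuantSeq 3′ forward libraries and sequenced with single-end reads of 85 bases. The authors trimmed the reads, removed mitochondrial and ribosomal reads, aligned the rest to GRCm38 with STAR 2.5.2b (submitters' processing notes) and counted them per gene with HTSeq in union mode, which leaves out reads that fit several places (median 33.5% of alignments). The deposited tables hold raw counts, 1 table per library. The authors also deposited a log2 matrix of the 48 libraries (size factors and a variance-stabilizing transformation), used here only as an alternative scale for levels.

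The sample titles gave the group and the letter of each library. Letters name separate samples, and the study describes the replicates of its bulk libraries as mice. Genes with more than 10 reads in total were tested (19970). Counts were fitted over all 48 libraries with 11 group means by edgeR 4.0.16 in R 4.3.3 (TMM scaling, quasi-likelihood test, biological coefficient of variation 24.9%, Benjamini-Hochberg over all tested genes). Spike-ins (3.71 to 5.97% of the counts) stayed out of the library sizes. Levels are TMM-scaled CPM, and ratios and mean levels use log2(CPM + 1). Depth limits low members most, since 1 read is worth about 0.5 CPM. Exact permutation tests used scipy 1.17.1. Gene positions and tails are from Gencode vM21, promoters from the RefSeq table of GRCm38.p6.

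The members and lists were chosen with earlier results of these data known. Genes named by rule were the 2 most abundant of each complex, the highest and lowest log2 fold change of each complex over the mean of times, any called member, and the restricted isoforms. Members with an adjusted p under 0.05, those without overlap and those of the libraries that stand apart were named after their values were seen, and 1 of the first is counted but its values are not reported here. Alternatives were DESeq2 1.42.0, its size factors, spike-in scaling, the compared groups alone, other filters, a replicate block, each library left out (with the dispersion trend of the full fit kept) and, added after seeing the data, all 4 libraries that stand apart left out. The scripts were tested on simulated data with a smaller spread than these libraries and with no library standing apart. That run does not show how the tests perform here.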

Additional observations from a re-analysis of the deposited data

Results flagged for a closer look

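In groups of 4 or 5 libraries, single libraries were compared with the rest of their group by Dixon's ratio at its 95% limit. Of 352 groups of values, 33 had a library beyond it, where independent and normally spread values would give about 1 in 20, or 17.6. These values are neither, since members share libraries and Cox8b is 0 in most of them. The excess is therefore not a test. The values are given without explanation.

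Of the mean levels, complex V was 7.02 (mean log2(CPM + 1)) in MCAO day 7 A against 6.80 to 6.86 in the rest of the group, and the mean of all members was 6.57 in control B against 6.49 to 6.50.

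In complex I, Ndufb8 had 284 CPM in MCAO day 3 C against 321 to 324 in the others. Ndufv3 had 169 CPM in control B (others 151 to 152), 182 in sham 3 h D (136 to 143) and 303 in MCAO 24 h A (147 to 168). In complex III, Cyc1 had 154 CPM in control B (120 to 124), 190 in sham 12 h C (69.8 to 83.4), 127 in sham day 3 D (92.3 to 96.7) and 121 in sham day 7 C (132 to 133). Uqcrh had 676 CPM in MCAO 12 h D (403 to 481) and 884 in sham day 7 D (597 to 615), and Uqcrq had 376 in sham 12 h C (340 to 342).

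In complex IV, Cox6a1 had 907 CPM in sham 3 h D (760 to 775) and 621 in MCAO day 7 C (770 to 821). Cox6a2 had 34.1 CPM in MCAO 12 h A (12.0 to 17.3), 15.9 in MCAO 24 h D (24.3 to 25.8) and 16.3 in MCAO day 7 E (8.92 to 10.2). Sham day 3 D stood out for Cox6c (1031 CPM, others 857 to 885), Cox7c (745, others 557 to 569), Cox8a (843, others 481 to 525) and Cox6b2 (0.937, others 4.20 to 4.62). Cox7a1 had 7.65 CPM in MCAO 12 h D (1.48 to 2.98) and Cox4i2 had 1.14 in control D (0.558 to 0.564).

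Cox8b had reads in a single library of 6 groups, at 1.14 CPM in control D, 0.862 in MCAO 3 h D, 0.632 in sham 24 h B, 0.847 in MCAO 24 h C, 1.41 in sham day 3 D and 0.626 in MCAO day 7 E, with 0 in the others. In complex V, Atp5d had 294 CPM in sham 12 h C (164 to 181) and 370 in sham day 7 D (262 to 279), and Atp5g3 had 699 in MCAO 3 h D (868 to 914).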

How the results depend on the processing

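Counts of members rested on single libraries more than the medians did. With an adjusted p under 0.05 and no fold limit, 6 members passed over the 5 times, 1 at 12 h and 13 at day 7, against 0 called in each. Leaving out MCAO 12 h replicate D gave 1 called member at 12 h (Ndufa7), and leaving out sham day 7 replicate A gave 1 at day 7 (Ndufa2). Over all libraries left out in turn, called members ranged from 0 to 1 at 12 h and at day 7 and were 0 at the other times and over the mean of times.

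Members with an adjusted p under 0.05 ranged from 0 to 16 at day 7, from 0 to 4 at 12 h and from 3 to 8 over the 5 times when 1 library was left out. At day 7 they numbered 16 with DESeq2 and with filterByExpr, 10 with DESeq2 size factors, 4 with the compared groups alone and 0 with spike-in scaling, and without a filter 8 were lower and 1 higher. At 12 h they numbered 2 with DESeq2 and with filterByExpr. At day 3, 2 members were lower with the compared groups alone and 1 without the 4 libraries. With 1 library left out, medians of the log2 fold change ranged from −0.24 to −0.08 at 12 h, −0.03 to 0.02 at 3 h, −0.03 to 0.13 at day 1 (−0.027 without MCAO 24 h replicate A), −0.07 to 0.01 at day 3, −0.17 to −0.10 at day 7 and −0.08 to −0.03 over the 5 times. Spike-in scaling moved the median of all genes to −0.10 at 3 h, −0.09 at 12 h, 0.14 at 24 h, −0.22 at day 3, 0.14 at day 7 and −0.02 over the 5 times, and that of the members to −0.12 at 3 h, −0.29 at 12 h, 0.20 at day 1, −0.26 at day 3, −0.03 at day 7 and −0.12 over the 5 times. The causes were not tested.

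The replicate letters did not pair the libraries: the correlation of an MCAO and a sham library of the same letter was −0.31 to 0.17, over 0.1 in 8 of 20 pairs, and 13 of 48 libraries correlated best with their own letter. With the letter as a replicate block, 0 members were called at every time and the medians were −0.06 over the 5 times, 0.00 at 3 h, −0.18 at 12 h, 0.08 at day 1, −0.03 at day 3 and −0.11 at day 7. Members with an adjusted p under 0.05 were then 5 over the 5 times, 1 at 12 h and 10 at day 7. Among single members, Cox6c over the 5 times was past 0.05 without a filter (adjusted p = 0.0528), and Ndufv1 in 9 of the fits with a library left out. Depth limits what can be said of members under 10 CPM.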

Other observations

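Other mitochondrial gene lists followed the subunits from library to library. After removal of group means, the mean log2 level of the members had a Pearson correlation of 0.67 with that of 48 assembly factors, 0.67 with 19 electron carriers and import genes and 0.57 with 77 mitochondrial ribosomal proteins over the 48 libraries. It was 0.45 with neuron markers, 0.32 with astrocyte markers and −0.31 with endothelial markers, and near 0 with those of microglia and macrophages, granulocytes and oligodendrocytes. These values share library and depth and are given as a description.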
